A study of Mus musculus with 9 samples.

Results

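Islet genes that stayed far below the islet level in induced cells were examined, 42 genes of the 9937 with a usable probe. Members were chosen by measured signal: after quantile normalization over the 9 arrays, a gene's brightest probe had an islet mean of at least 50, a non-islet mean under 10 and an induced mean under 12.5% of the islet mean. Well-known islet and vessel genes (Ucn3, Ppy, Isl1, Slc30a8, Esm1 and others) and genes named Col, Lam or Kcn were left out by name. Since the signal of all 3 groups chose the members, their levels in islets, and in induced cells relative to islets, are given as a description without a test.

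The study compared 3 groups of 3 samples from adult mouse pancreas on Illumina bead arrays. Induced cells were GFP-positive cells that flow cytometry had isolated out of rag-/- mouse pancreas, a strain without mature T and B lymphocytes, 1 month after infection with the M3 adenovirus. By the labels 22% of them were insulin-positive, and a sample held about 5000 cells. Islets, 4 to 5 per sample, were picked by hand from adult pdx-gfp transgenic mice, and the non-islet samples, about 10000 cells each, were the pancreas of such mice (written pdxa-gfp in that label) after the islets had been removed. Sex and age in weeks are not in the labels. The Y-linked genes Eif2s3y and Kdm5d exceeded background on all 3 induced arrays and on 0 of 3 in islets and in non-islet cells, so that strain, sex and treatment cannot be told apart between induced cells and the other groups. The labels describe the 3 samples of a group as independent repeats without tying them to different animals.

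An islet of Langerhans holds hormone-secreting endocrine cells, mostly beta cells, wrapped around a dense bed of capillaries with their pericytes. Endocrine cells release hormone from granules by machinery that they share with neurons, and many genes known from synapses, axons and membrane excitability are also active in islets. A whole islet therefore carries RNA of endocrine cells, vessels and a few resident immune cells together.

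Between 13476 and 13689 probes were above background on the induced arrays, between 13525 and 13763 on the islet arrays and between 9210 and 9933 on the non-islet arrays. On the normalized scale the lowest signal above background lay between 2.60 and 2.79 on induced arrays, 2.53 and 2.74 on islet arrays and 8.04 and 10.1 on non-islet arrays, so a non-islet mean below 10 lay close to the limit of measurement or under it. Replicates correlated at 0.994 to 0.996 in induced cells, 0.994 to 0.996 in islets and 0.976 to 0.979 in non-islet cells across the kept probes, which are not independent. The number of arrays limits the precision. In these samples fewer cells of a type and less RNA per cell cannot be told apart.

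Most islet-restricted genes had a higher share of the islet level in induced cells than these 42. Of 321 genes with an islet mean of at least 50 and a non-islet mean under 10, 49 were under 12.5% of the islet mean in induced cells, or 15.3% of them, and of all 3691 genes with such an islet mean 91 were, or 2.47%. A further 37 of the 321 lay between 12.5% and 25%, 60 between 25% and 50%, 100 between 50% and 100%, and 75 at the islet mean or above it. Of the 49, 7 were left out by name (Esm1, Gjd2, Ppy, Scg2, Slc30a8, Trpm5 and Ucn3), which leaves the 42 members. Another 268 genes of the 321, not left out by name, reached at least 12.5% of the islet mean and had a median of 69.0% of it.

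**Figure D1:**
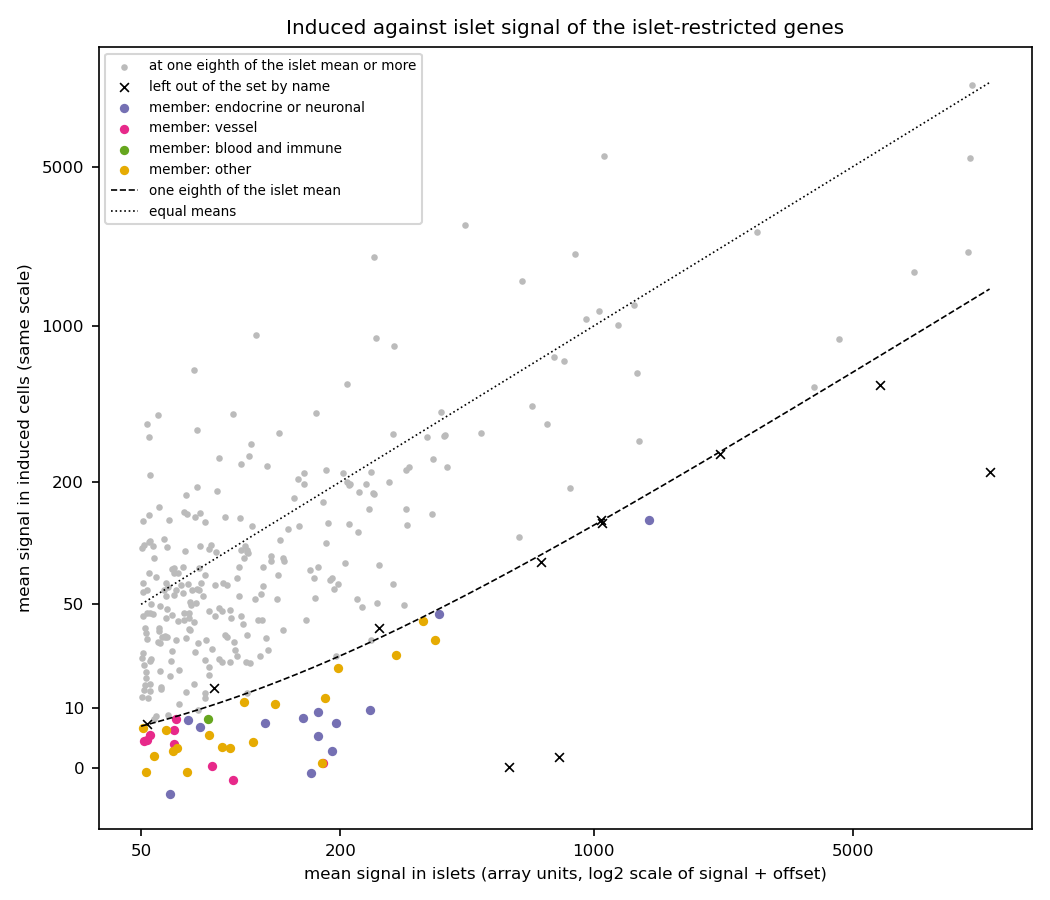
Mean signal in induced cells (vertical) against mean signal in islets (horizontal), both in array units on a log2 scale of signal plus 12, for the 321 islet-restricted genes. The coloured members lie under the dashed line at 12.5% of the islet mean, and most of the grey genes lie between it and the dotted line of equal means.

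The members had islet means between 50.7 and 1416 with a median of 96.1, close to the median of 90.7 among the 268 other genes, whose highest mean was 10439. Their induced means ran from -2.72 to 132 with a median of 5.11, and their non-islet means from -4.34 to 9.54 with a median of 2.09. The median share of the islet level was 5.40%. On the islet arrays all 42 were above background on 3 of 3 arrays, with a replicate coefficient of variation of at most 16.5%. On the induced arrays 24 members were above background on all 3, 7 on 2, 2 on 1 and 9 on none, so the set grades from genes with a clear residue to genes without a measurable one. On the non-islet arrays 31 members were above background on none, 9 on 1 and 2 on 2. The lowest islet array was above the highest induced array for 42 of 42, which the choice of members fixes.

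**Figure D2:**
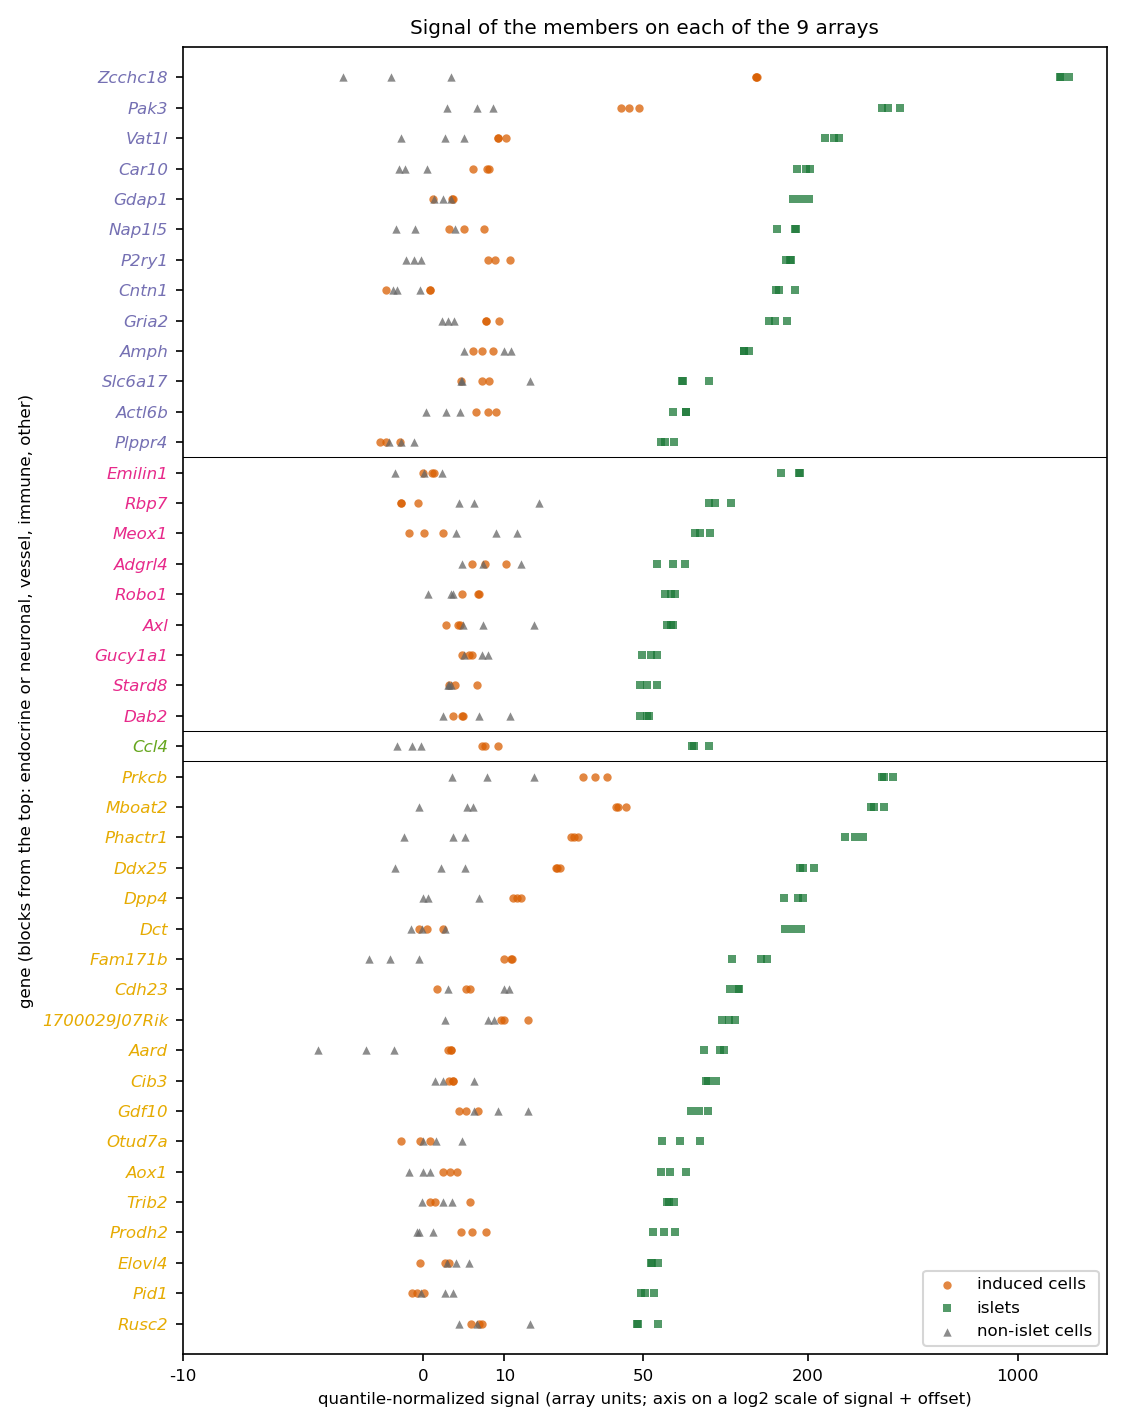
Quantile-normalized signal of the 42 members on each array (array units, log2 scale of signal plus 12), with induced cells as circles, islets as squares and non-islet cells as triangles, in blocks by class. The 3 islet arrays lie apart on the right in every row, and induced arrays lie among the non-islet arrays for genes such as Dct, Cntn1 and Emilin1 but apart from them for Zcchc18, Pak3 and Mboat2.

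By known roles, 13 members were classed as endocrine or neuronal, 9 as vessel genes, 1 as immune and 19 as other. Gene lists settled the class of 9, and 33 were classed from textbook knowledge after the members had been seen. Several members are known from more than 1 cell type, so the class is a label and not a measured cell of origin.

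In the endocrine or neuronal class the brightest gene was Zcchc18, a zinc finger gene of the nervous system. Its signal was 131, 132 and 133 on the induced arrays, 1391, 1381 and 1477 on the islet arrays and -5.42, -2.52 and 2.80 on the non-islet arrays. The induced level, 9.32% ± 0.04 of the islet mean (SD of the induced arrays, n = 3), differed little between replicates, but under a common median scaling it stood at 13.3% and Zcchc18 left the set. Pak3, a p21-activated kinase of neurons and islets, had 48.0, 40.3 and 43.8 in induced cells, 409, 356 and 372 in islets and 2.38, 8.21 and 5.99 in non-islet cells. At 11.6% of the islet mean it was among the 4 members nearest to the limit, and at 13.6% under a common median scaling it too left the set.

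Genes of receptors and ion channels followed. P2ry1, a receptor for ADP, had a signal of 7.44, 8.49 and 10.98 in induced cells, 168, 175 and 174 in islets and -0.809, -1.47 and -0.219 in non-islet cells. Gria2, a subunit of the AMPA-type glutamate receptor, had 9.21, 7.16 and 7.22 in induced cells, 169, 146 and 153 in islets and 3.16, 2.49 and 1.77 in non-islet cells. Both kept a small signal above background on all 3 induced arrays, 5.20% ± 1.05 and 5.04% ± 0.75 of the islet mean (SD of the induced arrays, n = 3 each).

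The promoter of Gria2 is shown because among members it alone held the core of the RE1 element, the site of the repressor REST that is known for holding neuronal genes silent in other tissues. The sequence is chr3:80802786-80803085 of GRCm38.p6, minus strand, credited to RefSeq, from 250 bases before to 50 after the annotated start. Capitals mark AGCACC, any 2 bases and GGACAG, here on the opposite strand, with its first base at -170 from the start.
Gria2: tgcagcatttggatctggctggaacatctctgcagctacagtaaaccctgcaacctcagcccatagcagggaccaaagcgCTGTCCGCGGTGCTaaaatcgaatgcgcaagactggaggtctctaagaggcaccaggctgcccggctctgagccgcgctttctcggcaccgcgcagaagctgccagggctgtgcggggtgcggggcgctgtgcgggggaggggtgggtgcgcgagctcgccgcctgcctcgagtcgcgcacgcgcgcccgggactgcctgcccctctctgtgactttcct
This core was in 1 of the 37 members with a promoter sequence, in 1 of 217 of the other islet-restricted genes and in 16 of all 27025 genes (2.70%, 0.461% and 0.0592%), searched on both strands. A match describes letters in this window and shows no binding. No kept probe measured Rest itself.

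Vat1l, a gene related to a synaptic vesicle membrane protein, had a signal of 9.02, 8.91 and 10.3 in induced cells, 255, 229 and 245 in islets and -1.79, 2.16 and 4.24 in non-islet cells. Car10, a carbonic anhydrase-related protein without enzyme activity, had 7.39, 7.64 and 5.45 in induced cells, 183, 197 and 202 in islets and 0.314, -1.9997 and -1.51 in non-islet cells. In both genes the induced arrays lay just above every non-islet array and far below islets, with no non-islet array above background. The induced values of Car10 lay under the non-islet limits of 8.04 to 10.1, and those of Vat1l near these limits. The separation of induced from non-islet cells is therefore not a measured one in either gene. Amph, which encodes amphiphysin of endocytosis at synapses, had 8.25, 5.45 and 6.67 in induced cells, 120, 124 and 119 in islets and 11.1, 9.91 and 4.26 in non-islet cells. Slc6a17, a vesicle transporter of neutral amino acids, had 3.92, 7.61 and 6.60 in induced cells, 89.1, 70.9 and 71.2 in islets and 4.02, 3.95 and 14.6 in non-islet cells. For Amph and Slc6a17 the induced and non-islet arrays overlapped.

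Cntn1, a contactin of axon contacts, was above background on no induced array. Its signal was 0.604, 0.633 and -2.89 in induced cells, 155, 158 and 180 in islets and -2.39, -2.10 and -0.310 in non-islet cells. Against the limit of the induced arrays its level was lower than in islets by at least 11.99-fold. Such bounds set the islet mean against, on each array, the higher of the background limit and the gene's own signal, on the scale of log2(signal + 12). Plppr4, a phospholipid phosphatase-related membrane protein of neurons, was dimmer in islets, with -2.92, -3.30 and -1.93 in induced cells, 59.0, 65.9 and 60.99 in islets and -0.766, -1.84 and -2.70 in non-islet cells. It was at least 5.03-fold lower in induced cells than in islets.

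Gdap1, a gene of mitochondrial fission, had a signal of 0.931, 2.89 and 3.00 in induced cells, 178, 202 and 189 in islets and 1.00, 2.77 and 1.92 in non-islet cells. Nap1l5, an imprinted gene of the nucleosome assembly family, had 6.88, 4.33 and 2.57 in induced cells, 156, 182 and 180 in islets and 3.27, -2.23 and -0.710 in non-islet cells. Both exceeded background on 2 of 3 induced arrays and stood at 1.197% ± 0.61 and 2.66% ± 1.25 of the islet mean (SD of the induced arrays, n = 3 each). Actl6b, the neuronal actin-like subunit of the BAF chromatin complex, had 8.64, 5.83 and 7.499 in induced cells, 73.2, 65.4 and 73.3 in islets and 2.22, 3.81 and 0.240 in non-islet cells. At 10.4% of the islet mean it kept the highest share in this class after Pak3.

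These genes lay below most of the endocrine list in their share of the islet level, which the choice of members fixes. The list holds none of the well-known endocrine genes left out by name. Of 237 listed endocrine genes 161 had a kept probe and 78 an islet mean of at least 50, of which 5 were under 12.5% of the islet mean (6.41%, against 2.47% of all genes with such an islet mean). The 5 were the members Vat1l, Cntn1, Gria2 and Slc6a17, and Hadh, a dehydrogenase of fatty acid oxidation, which had a signal of 32.3 in induced cells, 318 in islets and 87.9 in non-islet cells. The median share over the 78 was 70.2%. Among the 47 listed genes that were also under 10 in non-islet cells, 4 were in the set (8.51%, against 15.3% of all islet-restricted genes). The 15.3% counts genes left out by name, which the list does not hold. Of the 11 left-out endocrine genes 8 were also under 10 in non-islet cells, and 6 of these were under 12.5%. The shares of 8.51% and 15.3% therefore cover unlike sets of genes, as do 6.41% and 2.47%. The insulin gene Ins2 stood at 64.0% of the islet mean. The 11 well-known endocrine genes left out by name summed to 1646 to 1668 per induced array, 25701 to 28591 per islet array and 96.3 to 110.7 per non-islet array, and 9 of the 11 were under 12.5%. These 11 were named with earlier results of these data known, so their share is a description and does not stand for endocrine genes at large.

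The vessel class was led by Emilin1, a gene of the elastic fibre matrix of vessel walls. Its signal was 1.06, 0.803 and -0.0171 in induced cells, 161, 188 and 186 in islets and -2.27, 1.84 and 0.0752 in non-islet cells. It was above background in islets alone and was at least 12.9-fold lower in induced cells than in islets. Meox1, a homeobox gene of mesoderm and endothelium, had -1.17, 0.0407 and 1.89 in induced cells, 89.9, 78.9 and 82.5 in islets and 3.32, 12.2 and 8.64 in non-islet cells. Rbp7, a retinol-binding protein known from capillaries, had -1.82, -0.485 and -1.82 in induced cells, 89.4, 94.2 and 108 in islets and 3.71, 5.59 and 16.4 in non-islet cells. Neither was above background on any induced array, and they were at least 6.51-fold and 7.41-fold lower there than in islets. For both, every non-islet array was above every induced array, although 2 of 3 non-islet arrays for Meox1 and 1 of 3 for Rbp7 were above background.

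Receptors of this class were dim everywhere outside islets. Adgrl4, an adhesion receptor of endothelium, had a signal of 5.31, 7.01 and 10.3 in induced cells, 56.8, 65.5 and 72.5 in islets and 6.72, 4.07 and 12.9 in non-islet cells. Robo1, a Slit receptor that guides axons and vessels, had 6.26, 4.10 and 6.07 in induced cells, 60.8, 64.5 and 66.8 in islets and 3.05, 2.81 and 0.438 in non-islet cells. Robo1 had every induced array above every non-islet array, none of which was above background, while the induced and non-islet arrays of Adgrl4 overlapped. The induced values of Robo1 lay under the non-islet limits of 8.04 to 10.1, so its separation is not a measured one. Axl, a receptor tyrosine kinase for Gas6, had 2.24, 3.804 and 3.59 in induced cells, 65.2, 62.0 and 64.4 in islets and 4.19, 6.82 and 15.4 in non-islet cells. Its 3 induced arrays lay below its 3 non-islet arrays, of which 1 was above background.

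The signalling genes Gucy1a1, Stard8 and Dab2 lay close to the islet limit of 50. Gucy1a1, a subunit of the nitric oxide receptor guanylate cyclase, had a signal of 4.02, 5.23 and 4.85 in induced cells, 56.8, 49.5 and 53.7 in islets and 6.68, 4.31 and 7.43 in non-islet cells. Stard8, a gene of the START domain family, had 5.93, 3.22 and 2.54 in induced cells, 56.5, 48.4 and 51.9 in islets and 2.57, 2.81 and 2.44 in non-islet cells. Dab2, a clathrin adaptor, had 3.00, 4.19 and 4.00 in induced cells, 48.7, 51.7 and 52.9 in islets and 6.18, 1.95 and 10.9 in non-islet cells. In all 3 genes the induced and non-islet arrays overlapped, and 1 islet array lay under 50 in each.

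Markers that define endothelium were also far below the islet level in induced cells, a level that for the vessel members the rule fixed. Of 10 such markers, all left out by name, 9 had a kept probe and 7 an islet mean of at least 50. In induced cells 7 of these 7 were under 12.5% of the islet mean, against 2.47% of all genes with such an islet mean. The markers were named with earlier results of these data known, so this share is a description. Their summed signal was 24.8 to 34.8 per induced array, 2391 to 2463 per islet array and 314 to 376 per non-islet array. Esm1, Icam2 and Tek were above background on no induced array, and Kdr had no kept probe. Emcn, a sialomucin of capillary endothelium, had a mean of 5.68 in induced cells, 473 in islets and 95.8 in non-islet cells. On non-islet arrays 6 of the 9 markers were above background on all 3 and Esm1, Icam2 and Tek on none, whereas of the 9 vessel members 4 were above it on none, 4 on 1 and 1 on 2, a level that the choice of members bounds. The part of vessel cells in the values of these members was not tested.

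Of 171 listed endothelial genes 110 had a kept probe and 42 an islet mean of at least 50, of which 16 were under 12.5% (38.1%, against 2.47% of all genes with such an islet mean). The median share over the 42 was 23.3%. Only Adgrl4, Meox1 and Robo1 of the 16 met the non-islet limit, and the other 13 had non-islet means between 15.7 and 461. Of the 5 listed endothelial genes that were islet-restricted, these 3 were thus under 12.5% (60%). Among all islet-restricted genes the share was 15.3%, which counts genes left out by name. The listed genes Lyve1 and Nostrin, also islet-restricted, stood at 120.5% and 292% of the islet mean. Sox18, a transcription factor of endothelium, was above background on no induced array and averaged -1.28 in induced cells, 102 in islets and 36.6 in non-islet cells. Ptprb, a phosphatase of vascular endothelium, averaged 5.498, 209 and 49.7 in induced cells, islets and non-islet cells, and Cav1, of membrane caveolae, 6.03, 154 and 76.4 in the same order. The summed signal of all 110 measured genes was 12599 to 13112 per induced array, 9354 to 10187 per islet array and 5707 to 5886 per non-islet array, and the list also holds genes of many cell types. Of the mural and stromal list 3 of 14 genes were under 12.5%, Emilin1, Cygb and Ednrb. The left-out matrix gene Mgp stood at 4.13% and Acta2, a smooth muscle actin, at 17.3% of the islet mean.

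**Figure D3:**
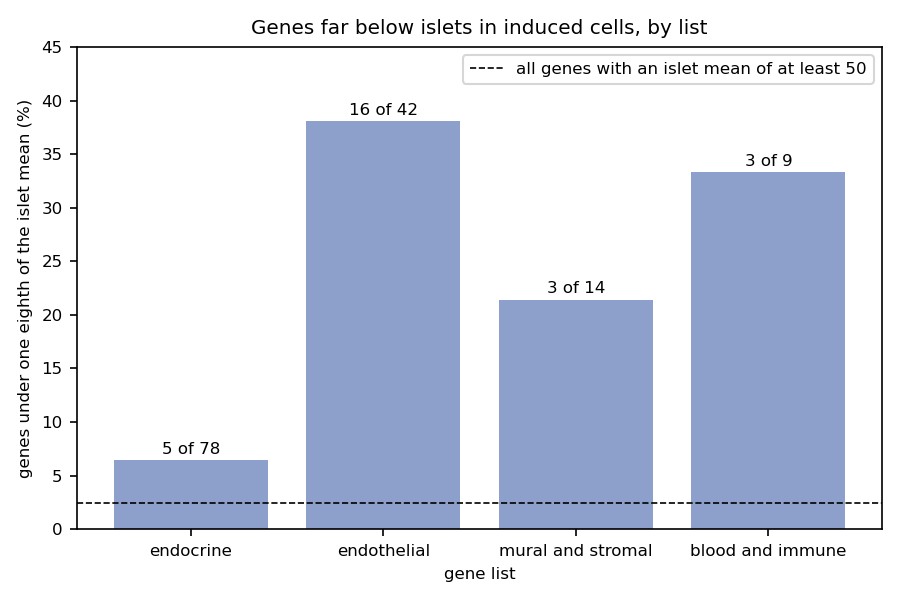
Share of genes under 12.5% of the islet mean in induced cells among listed genes with an islet mean of at least 50, with counts over the bars and a dashed line at the 2.47% of all such genes. The bar of the endothelial list, 16 of 42, stands above that of the endocrine list, 5 of 78. The bars do not hold the genes left out by name, which the dashed line counts. Of these, 9 of 11 endocrine genes and 7 of 7 endothelial markers with such an islet mean were under 12.5%. Both sets were named with earlier results of these data known, so these shares are descriptions.

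The single immune member was Ccl4, a chemokine gene of myeloid and lymphoid cells. Its signal was 6.67, 8.95 and 7.05 in induced cells, 77.2, 78.3 and 89.0 in islets and -2.15, -0.209 and -0.988 in non-islet cells, so that the 3 groups did not overlap. No non-islet array was above background for it, and the induced values lay near or under the non-islet limits of 8.04 to 10.1. The separation of induced from non-islet cells is therefore not a measured one. Of 9 listed blood and immune genes with an islet mean of at least 50, 3 were under 12.5% (33.3%, against 2.47% of all genes with such an islet mean). Besides Ccl4 these were the globin genes Hba-a1 and Hbb-b2. Over the 29 listed genes with a kept probe the summed signal was 478 to 550 per induced array, 2284 to 2549 per islet array and 779 to 923 per non-islet array. Their part in the value of Ccl4 was not tested.

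Among the 19 other members the brightest were Prkcb, Mboat2 and Phactr1. Prkcb, a classical protein kinase C, had a signal of 27.4, 35.1 and 31.2 in induced cells, 355, 361 and 387 in islets and 7.33, 2.90 and 15.5 in non-islet cells. Mboat2, an acyltransferase that remodels phospholipids, had 38.7, 42.5 and 39.4 in induced cells, 326, 361 and 334 in islets and -0.388, 5.44 and 4.60 in non-islet cells. Phactr1, a regulator of actin and protein phosphatase 1, had 24.3, 24.95 and 26.1 in induced cells, 268, 289 and 306 in islets and 4.36, -1.57 and 3.03 in non-islet cells. In these 3 genes the groups did not overlap, and the induced cells kept 8.497%, 11.8% and 8.73% of the islet mean. Under a common median scaling Mboat2 stood at 13.6% and Prkcb had a non-islet mean of 10.1, and both left the set.

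Ddx25, an RNA helicase of germ cells, had 20.7 ± 0.577 in induced cells, against 196 ± 11.5 in islets (SD, n = 3 each). Dpp4, the peptidase that cleaves incretin hormones, had 12.2 ± 0.722 in induced cells, against 181 ± 13.8 in islets (SD, n = 3 each). Fam171b, a membrane protein gene, and 1700029J07Rik, which the annotation gives no role, exceeded background on each induced array, at 8.32% and 10.7% of the islet mean. Cdh23, a cadherin of hair cell tip links, Cib3, a calcium-binding protein of hair cells, and Aard stood at 3.25%, 3.17% and 2.84%. Gdf10, a growth factor of the TGF-beta superfamily, Aox1, an aldehyde oxidase, the pseudokinase gene Trib2, Prodh2, of hydroxyproline breakdown, and Rusc2 stood at 5.78%, 4.13%, 3.55%, 9.12% and 11.8%.

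Dct, Otud7a, Elovl4 and Pid1 completed this class and were above background on no induced array. Dct, dopachrome tautomerase, is an enzyme of melanin synthesis known from pigment cells. Its signal was 1.97, -0.344 and 0.374 in induced cells, 189, 177 and 166 in islets and -1.06, 2.14 and -0.0873 in non-islet cells, at least 12.9-fold lower in induced cells than in islets. Of 5 other pigment cell genes, chosen after the values of Dct were seen, Mitf, Tyr, Pmel and Mlana had no kept probe, and Tyrp1 averaged 2.92 in induced cells, 3.17 in islets and 23.8 in non-islet cells. Otud7a, a deubiquitinase gene, Elovl4, an elongase of very long fatty acids, and Pid1 were at least 5.57-fold, 4.57-fold and 4.34-fold lower in induced cells than in islets.

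The promoters of Dct and Otud7a are shown because each holds a named motif in a gene without measurable signal in induced cells. Both are RefSeq sequences of GRCm38.p6, the first chr14:118052197-118052496 on the minus strand and the second chr7:63444522-63444821 on the plus strand. Capitals mark TCATGTG, the motif of Mitf and its relatives, in Dct, where it starts at -232 and at -151, and the cyclic AMP response element TGACGTCA in Otud7a, where it starts at -121.
Dct: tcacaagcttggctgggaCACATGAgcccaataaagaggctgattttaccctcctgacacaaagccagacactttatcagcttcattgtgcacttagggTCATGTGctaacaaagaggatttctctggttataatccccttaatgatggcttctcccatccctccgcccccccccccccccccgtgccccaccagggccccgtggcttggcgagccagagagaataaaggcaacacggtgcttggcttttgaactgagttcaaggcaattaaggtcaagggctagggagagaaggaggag
Otud7a: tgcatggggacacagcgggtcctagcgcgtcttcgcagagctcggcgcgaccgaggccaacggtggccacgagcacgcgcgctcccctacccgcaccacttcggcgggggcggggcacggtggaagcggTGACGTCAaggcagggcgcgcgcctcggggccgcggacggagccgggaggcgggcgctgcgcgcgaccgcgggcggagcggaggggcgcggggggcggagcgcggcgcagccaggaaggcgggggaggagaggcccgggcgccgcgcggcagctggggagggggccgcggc
The Mitf motif was in 2 of 37 members, Dab2 and Dct (5.41%), in 5.53% of 217 other islet-restricted genes and in 4.31% of all genes, and the cyclic AMP element in 1 of 37 (2.70%), in 3.23% and in 2.03%.

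Promoters were at hand for 37 of the 42 members, all but Aard, Ccl4, Fam171b, Gdap1 and Meox1. On both strands, the E-box CAGATG bound by NeuroD and Neurog3 was in 5 of 37 (13.5%), in 18.9% of 217 other islet-restricted genes and in 19.2% of all genes. For the homeodomain motif TAATTA the shares were 5.41%, 4.61% and 6.12%, for the Foxa motif TGTTTAC 5.41%, 4.61% and 4.05%, and for the Maf motif TGCTGAC 2.70%, 5.53% and 5.28%. The Ets motif CCGGAAG was in 0 of 37 members, in 11.1% of the other islet-restricted genes and in 9.93% of all genes, the TATA box TATAAA in 10.8%, 13.8% and 15.7%, and the GC box GGGCGG in 56.8%, 67.7% and 38.2%. Some promoters hold several of these motifs, and genes with several promoters count once. GC content had a median of 59.3% in 50 member promoters, 59.0% in 318 of the other islet-restricted genes and 52.7% in all 32851. The median ratio of observed to expected CpG was 0.553, 0.640 and 0.384. These shares are descriptions of 300 bases per promoter.

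A second reading came from the other probes on the array. Of the members, 27 had 1 probe, and 15 had 19 others, of which 13 were above background on 3 islet arrays and 5 on no array at all. Of the 13, 6 showed islet above non-islet signal and an induced mean under 12.5% of the islet mean, among them the second probe of Dct with 0.0449 in induced cells, 78.5 in islets and 0.408 in non-islet cells. The second probe of Prkcb had 11.7 in induced cells, 145 in islets and -2.02 in non-islet cells, and that of Prodh2 had 3.10, 29.2 and 0.423 in the same order. The rest of the 6 were dim probes of Ccl4, Gucy1a1 and Phactr1, with islet means of 9.35, 3.64 and 15.7.

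Other probes differed from the brightest. Both further probes of Mboat2, at 18.5% and 20.4% of the islet mean, lay above the 12.5% limit. Those of Cdh23 read 5.51 and 4.82 in induced cells, 5.22 and 5.27 in islets and 35.7 and 13.8 in non-islet cells, the highest group being non-islet cells in both. The second kept probes of Actl6b, Gucy1a1 and Robo1 read 57.4%, 33.8% and 20.7% of dim islet means of 7.16, 8.88 and 5.51. For Amph, Aox1, Gdap1, Pid1 and Rbp7 the other probe was above background on no islet array. The set rests on a single probe for these genes, and whether the probes read different transcripts was not tested.

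**Figure D4:**
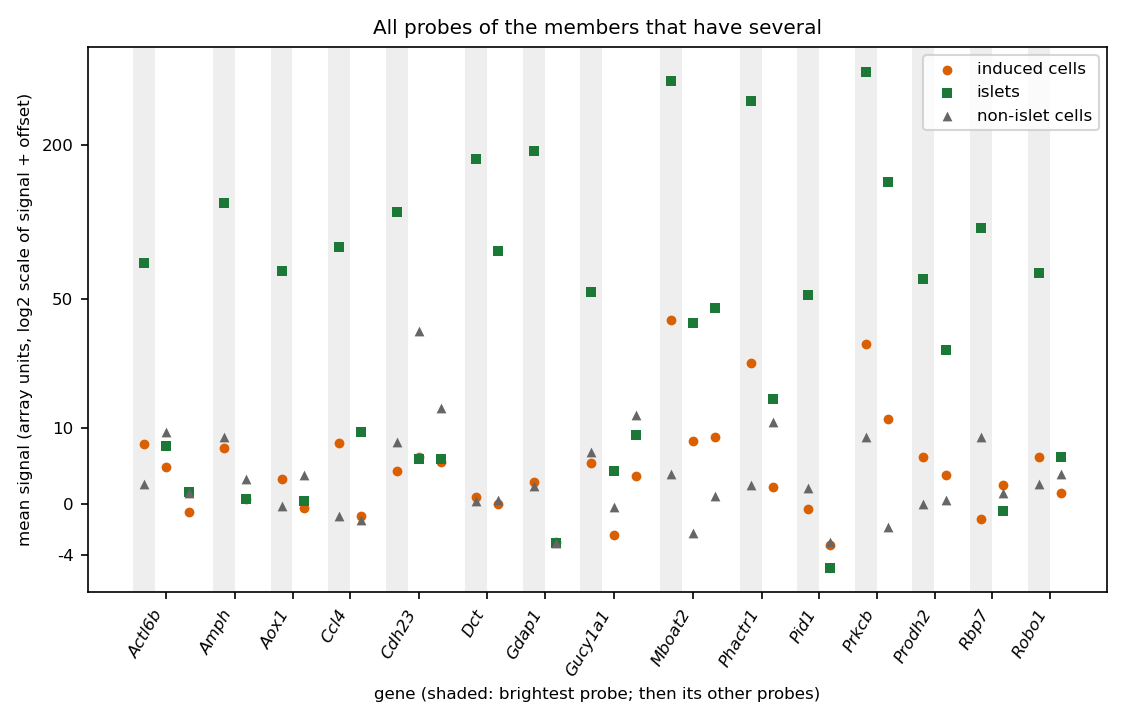
Mean signal (array units, log2 scale of signal plus 12) of every probe of the 15 members with several, the brightest probe shaded, with induced cells as circles, islets as squares and non-islet cells as triangles. Both probes of Dct, Prkcb and Prodh2 show islets far above induced cells, and both further probes of Cdh23 show non-islet cells highest.

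Induced cells were next set against non-islet cells, a pair whose difference the rule did not set directly, although it capped the level in both. The limit of 10 on the non-islet mean still favours higher values in induced cells, so the counts are read against the share of all probes. The calls for members are a description, drawn from values that the rule used. By limma's moderated test over 13927 probes, induced cells exceeded non-islet cells for 20 of 42 members and fell short for 4 (adjusted p under 0.05), whereas 39.6% of all probes were called higher and 36.5% lower. The share of members called higher, 47.6% against 39.6%, depended on the setting: it was 42.9% against 56.9% in the values as deposited, 38.1% against 42.7% under a common median, and 47.6% against 23.9% with no filter on background. The count of lower calls ran from 2 to 6 over all 19 fits, and was 2 without induced array 2 or 3. Of the 268 islet-restricted genes with a larger residue 266 were called higher, which their choice largely fixes. The median log2 difference was 0.12 over the members and 0.05 over all kept probes.

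Zcchc18 had the largest difference, 3.89 (SE 0.22, limma adjusted p = 2.86e-08), with every induced array above every non-islet array. This p-value and those of the other members are descriptions, since the rule chose members on the same values. It was at least 6.83-fold higher than the limit of the non-islet arrays. Pak3 rose by 1.69 (SE 0.13) and Mboat2 by 1.80 (SE 0.14), at least 2.65-fold and 2.47-fold, and Phactr1 by 1.44 and Ddx25 by 1.33, at least 1.76-fold and 1.55-fold. For Fam171b (1.25), Dpp4 (0.80), 1700029J07Rik (0.38) and Vat1l (0.69) the bound was between 1.01-fold and 1.15-fold. Thus 9 members had a mean signal above the mean non-islet limit with no non-islet array above background. For Fam171b, 1700029J07Rik and Vat1l some induced arrays lay under 10.1, the highest of these limits, so their signal was at the limit. Prkcb, with 1 of 3 non-islet arrays above background, rose by 1.11 (limma adjusted p = 0.00016). The remaining higher calls, such as P2ry1 (0.91), Ccl4 (0.85) and Car10 (0.79), compare an induced signal under 10 with non-islet values that were not above background.

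By class, 8 of 13 endocrine or neuronal members, 1 of 9 vessel members (Robo1), the immune member and 10 of 19 others were called higher, against 39.6% of all probes, and 0 of 13, 3 of 9, 0 of 1 and 1 of 19 were called lower, against 36.5% of all probes. The 4 lower calls were Rbp7 (-0.91, SE 0.19), Meox1 (-0.69, SE 0.16), Axl (-0.42, adjusted p = 0.0335) and Gdf10 (-0.35, adjusted p = 0.0387), and none of these was above background on all 3 non-islet arrays. Nothing is read from these counts about the classes, since the members were chosen on these values. Among genes that missed the threshold, the 95% interval was -0.18 to 0.38 for Emilin1 and -0.21 to 0.30 for Dct. Both genes were above background on no induced and no non-islet array. Their intervals therefore describe values at background and do not bound a change in expression. Under a common median scaling the calls for Nap1l5, Gria2, Actl6b, Aox1, 1700029J07Rik and Robo1 were lost (limma adjusted p = 0.0733, 0.0910, 0.0860, 0.0615, 0.363 and 0.275). Single arrays also decided calls: without induced array 1 those for Nap1l5, Aox1, Robo1 and Axl were lost (limma adjusted p = 0.0798, 0.0670, 0.0650 and 0.103), without induced array 3 those for Robo1, 1700029J07Rik and Axl (limma adjusted p = 0.0550, 0.122 and 0.0627), without induced array 2 that for Axl (0.0570), without non-islet array 2 that for Nap1l5 (0.0643), and without non-islet array 3 those for 1700029J07Rik and Axl (0.0796 and 0.0701). Gdf10 was lost in 12 of the 19 fits, with adjusted p up to 0.130, and Axl in 8.

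**Figure D5:**
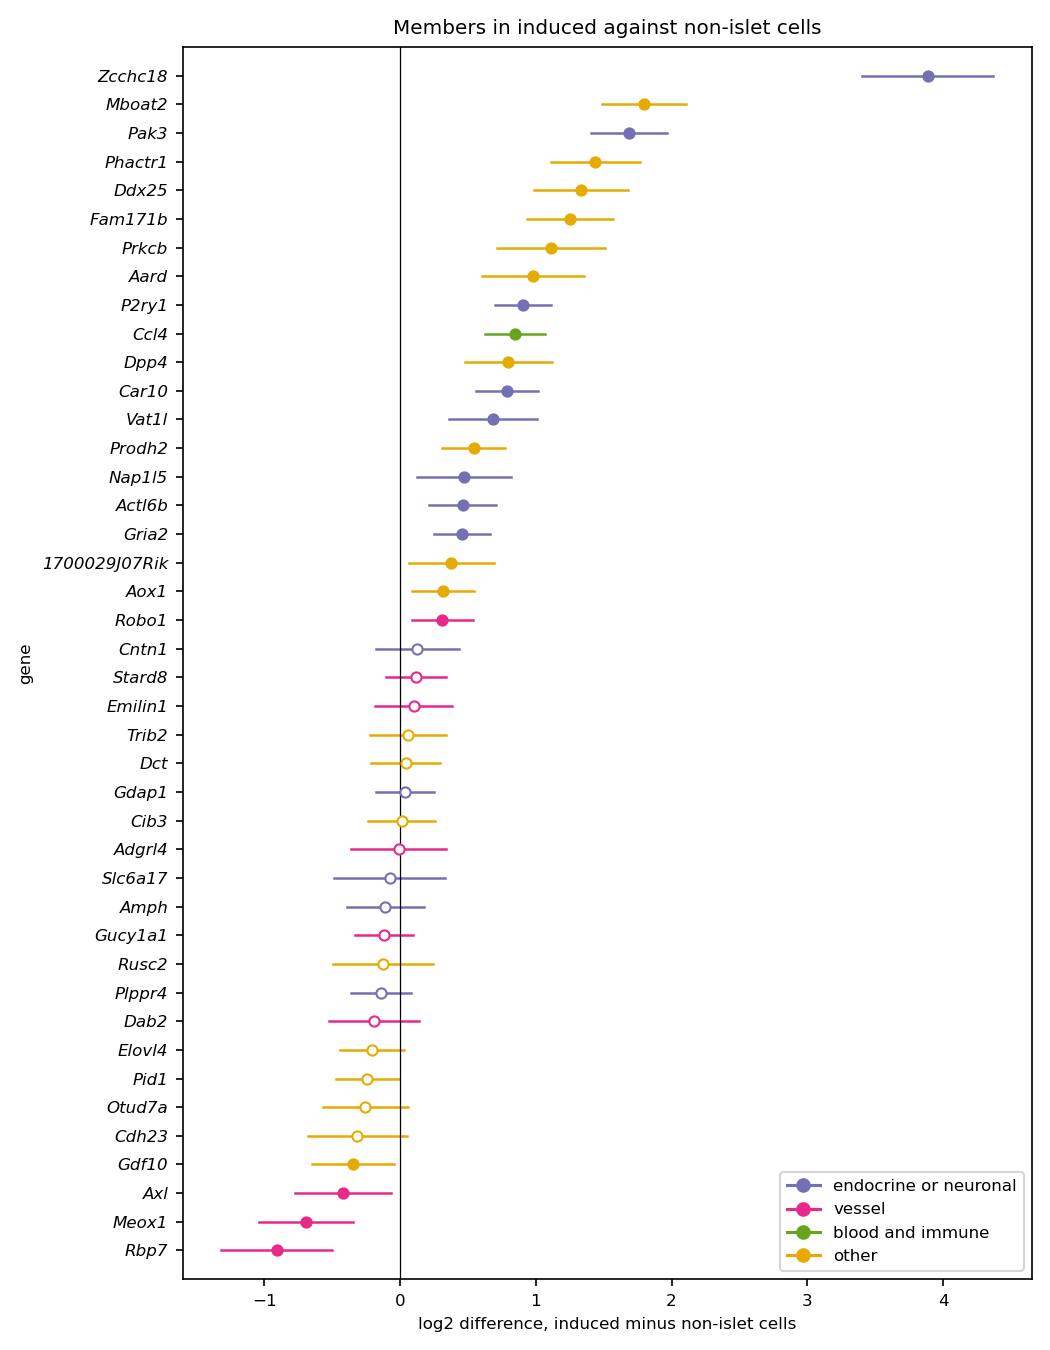
Log2 difference of the 42 members, induced minus non-islet cells, with 95% intervals from the limma fit, coloured by class (filled points had an adjusted p under 0.05). The calls are a description, since the rule chose members on the same values. Zcchc18 lies far to the right at 3.89 and Rbp7 at the lower end at -0.91, with filled points on both sides of 0.

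Near the limits the set shades into its surroundings. Just inside 12.5% of the islet mean were Mboat2, Rusc2, Pak3 and Adgrl4 at 11.6% to 11.8%, and just outside it Tshz3, Ica1l, Nectin3 and Eno2 at 12.5% to 12.8%. Just above the islet limit of 50 were Rusc2, Dab2 and Pid1 (50.7 to 51.7), and just below it Ltbp4, Slc2a6 and Tspan33 (48.5, 48.3 and 42.4). Just under the non-islet limit were Gdf10, Axl and Prkcb (9.54, 8.82 and 8.57), and just over it Ybx2, Abat and Mybbp1a (10.8, 12.3 and 12.6). A further 29 genes met the limits for islets and induced cells with a non-islet mean of 10 or more.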

How the data were processed

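RNA of 9 samples in 3 groups of 3 was measured on Illumina bead arrays (24613 probes). Extraction used Trizol and amplification a TotalPrep kit, per the labels' protocols. The submitters' processing notes name BeadStudio without a version. The deposited intensity values are on a linear scale, background-subtracted (some are below 0) and brought to the same mean on every array, as the values show. A further table has 36 columns named by slide position, and as these match no sample's labels it was left aside, so that slide and group cannot be told apart.

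Values were quantile-normalized. The noise SD of an array came from its values below 0 mirrored at 0, and a value over 1.645 noise SD counted as above background. The 13927 probes that passed on every array of at least 1 group were kept, and each gene was read from its brightest kept probe (mean log2). Gene symbols came from the platform annotation, with 1 symbol for 20984 probes, several for 1 and none for 3628. For tests log2(signal + 12) was fitted with limma 3.58.1 in R 4.3.3, with 1 mean per group over 9 arrays, two-sided tests and Benjamini-Hochberg adjustment over the kept probes. Since separate animals are not stated, p-values cover only sample-to-sample spread, possibly technical. The procedure was tested on simulated data.

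The members, classes and gene lists were chosen with earlier results of these data known. Values on every array are given for all endocrine, neuronal and vessel members (their numbers were within the maximum set) and the 3 brightest of each other class, and levels for members near the limits, with the lowest shares, the largest differences or other probes. Alternatives covered the scaling, the filter, the offset, the limits, the choice of probe, array weights, a replicate block and each array left out.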

Additional observations from a re-analysis of the deposited data

How the results depend on the processing

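With other limits the set held 75 genes at 25% of the islet mean, 23 at 6.25%, and 20 with an islet mean of at least 100. It held 47 genes with a non-islet limit of 20 and 28 with 5. In the values as deposited it held 59 genes, the 42 among them, and under a common median scaling 38, of which 34 were shared. Under that scaling Zcchc18, Pak3 and Mboat2 exceeded 12.5% of the islet mean, and Amph, Axl, Gdf10, Prkcb and Rbp7 exceeded the non-islet limit. With the mean of all kept probes it held 35, all shared. Leaving out 1 array gave 39 to 45 genes, of which 37 to 41 were shared, and 30 members were in all 9 such sets. Members lost at least once without 1 array were Adgrl4, Amph, Axl, Cdh23, Dab2, Gdf10, Meox1, Pid1, Prkcb, Rbp7, Rusc2 and Stard8. The share of islet-restricted genes under 12.5% was 15.3% (exact binomial 95% interval 11.5% to 19.7%, counting error only), 12.6% in the values as deposited and 14.4% to 16.9% without 1 array.

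Between induced and non-islet cells 10608 probes were called, 10041 to 10833 without 1 array, and 20 members were called higher, 17 to 20 without 1 array and 16 to 20 over all 19 fits. With the replicate block 10580 probes and 20 members were called, but arrays of the same number did not deviate together (correlations of -0.116 to 0.190), so the numbers give no pairing. Of the calls 52.0% were higher, against 71.6% in the values as deposited, where the median of all kept probes shifted by 0.22 (log2). Called higher in all 19 fits were 14 members, and called lower in all were Meox1 and Rbp7. Plppr4, not called in the main setting (-0.14), was called higher at 0.13 (limma adjusted p = 0.0269) with a common median. Cntn1 and Gucy1a1, also not called in the main setting, were called there too. Cntn1 was higher at 0.165 and Gucy1a1 lower at -0.113 (limma adjusted p = 0.0291 and 0.0469). Plppr4 and Cntn1 were above background on no induced and no non-islet array, and the cause of these calls was not tested. Signals near background limit what can be said of members under 10 in induced cells.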
